A study of Mus musculus with 38 samples.

Results

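The cholesterol synthesis and SREBP2 target genes described here are 27 genes chosen by symbol, and all 27 were found among the 54352 genes of the count table. They were measured in 38 libraries of intestinal stem cell organoids, which are small epithelial cultures grown from the crypts of C57BL6 mice. The organoids were wild type (WT), floxed for Ppard (D), null for Ppara (A), or both (DA). Ppard and Ppara encode the lipid-sensing nuclear receptors PPARδ and PPARα. Each genotype was grown in 65% matrigel for 8 days, over 2 passages, with 1 uM GW501516 (GW, a synthetic PPARδ agonist) or with 0.1% DMSO as vehicle. WT had 5 vehicle and 5 GW libraries, D had 5 and 4, A had 5 and 5, and DA had 4 and 5. The labels call Ppard floxed and name no recombinase, so whether and how Ppard was removed is not given in the sources used here. Below, knockout stands for the labels D, A and DA, and the loss of Ppard is not verified. Nothing in the labels ties a library to an animal or a culture of its own, so p-values reflect the spread between libraries alone, which may be technical.

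Cells make cholesterol from acetyl-CoA by the mevalonate pathway, which passes through isoprenoids, squalene and lanosterol. The transcription factor SREBP2, encoded by Srebf2, raises the genes of this pathway when membrane sterol is low. Its escort Scap carries it from the endoplasmic reticulum to the Golgi for cleavage, and the Insig proteins hold the complex back when sterol is plentiful. The intestinal epithelium both absorbs cholesterol and makes its own, and dividing crypt cells need it for new membrane.

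Total counts ran from 353347 to 577557 per library, with a median of 483740, and mitochondrial transcripts took 7.55% to 10.6%. Values are counts scaled to the library total (CPM, the usual per-1000000 scale) from tags at transcript 3′ ends, and levels are not compared between genes. Libraries numbered 1 to 36 in the column names (24 libraries) stood apart from those numbered 37 to 56 (14 libraries). Counts of Xist, which is transcribed from the inactive X, were above those of all Y-linked genes together in 18 of the 24 and in 0 of the 14. Each group held libraries of both number ranges, but GW in D and vehicle in DA had only 1 library each numbered 37 to 56. 1 GW library titled D carried a genotype label naming both genes and was kept in D by its title. The names of the 4 columns do not tell which it is. Samples and columns list the groups in the same order, which would make it the column numbered 3 (replicate 1 of GW in D). The Ppara counts given next do not single out that column. With any 1 library of D left out, 0 members were called under GW in D. Ppara had group means of 10.6 to 17.3 CPM in WT and D and of 2.01 to 3.80 CPM in A and DA. Single libraries ran from 2.82 to 28.3 CPM in WT and D and from 0 to 6.23 CPM in A and DA, so these ranges overlapped. Under GW in D the lowest value was 2.82 CPM (1 count), in the column numbered 54 and not in that numbered 3. Vehicle in D also held a library at 1 count (2.83 CPM). Which column carries the label naming both genes is therefore not settled. Ppard had only 0 to 4 counts per library, too few to check the D genotype. Angptl4, a direct PPAR target, rose with GW by a log2 fold change of 1.95 ± 0.24 (SE) in WT (edgeR's quasi-likelihood test, Benjamini-Hochberg adjusted p = 9.43e-07). Its value was 1.38 ± 0.24 in A (edgeR, adjusted p = 0.00104), 0.90 ± 0.25 in D (edgeR, adjusted p = 0.635) and 0.013 ± 0.25 in DA. Epithelial markers were present, with 5 of 10 stem cell, 13 of 14 enterocyte and 7 of 8 Paneth cell genes abundant enough to test. Immune and tuft cell markers summed to at most 9.87 and 4.28 CPM, with 3 of 7 genes of each list at 0 throughout. Stromal markers summed to 15.2 to 54.3 CPM, with 4 of 7 at 0 throughout and 1 of 7 abundant enough to test. In bulk RNA, fewer cells of a type and less RNA per cell cannot be told apart.

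3 promoters are shown because they belong to the gene that carries a sterol regulatory element here (Hmgcs1), the gene of the factor itself (Srebf2) and the gene with the smallest p under GW (Hsd17b7). Each is the 250 bases before the RefSeq start site in GRCm38.p6, written 5′ to 3′ on the gene's strand. Capitals mark the sterol regulatory element core TCACNCCAC, the CCAAT box read on the other strand as ATTGG, and the E-box CACGTG. Hmgcs1 lies at chr13:119690101-119690350 (plus strand), Srebf2 at chr15:82147019-82147268 (plus strand) and Hsd17b7 at chr1:169969206-169969455 (minus strand).
Hmgcs1: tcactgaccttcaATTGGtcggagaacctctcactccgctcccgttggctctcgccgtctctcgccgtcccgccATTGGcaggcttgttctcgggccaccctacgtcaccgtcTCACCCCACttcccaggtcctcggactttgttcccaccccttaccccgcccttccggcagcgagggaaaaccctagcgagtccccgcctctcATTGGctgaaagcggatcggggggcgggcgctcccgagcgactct
Srebf2: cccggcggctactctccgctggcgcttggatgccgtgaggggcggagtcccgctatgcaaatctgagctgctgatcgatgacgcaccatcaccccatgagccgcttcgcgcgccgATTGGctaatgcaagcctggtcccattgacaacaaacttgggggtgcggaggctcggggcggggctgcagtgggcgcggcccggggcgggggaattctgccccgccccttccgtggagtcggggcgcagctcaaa
Hsd17b7: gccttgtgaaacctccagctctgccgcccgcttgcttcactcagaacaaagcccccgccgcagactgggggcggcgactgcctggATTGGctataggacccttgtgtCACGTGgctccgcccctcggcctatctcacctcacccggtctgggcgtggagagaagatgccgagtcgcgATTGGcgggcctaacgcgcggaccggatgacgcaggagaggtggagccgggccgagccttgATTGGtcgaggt

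A RefSeq promoter window, 250 bases before to 50 bases after the start, was on hand for 22 of the 27 genes, and both strands were searched. The CCAAT box, the site of the factor NF-Y that often acts with SREBP2, occurred in 19 of the 22 (86.4%), against 41.1% of 27025 genes. The E-box occurred in 5 of 22 (22.7%), against 8.09% of genes, in Dhcr7, Hsd17b7, Insig1, Sc5d and Scap. The exact sterol regulatory element core occurred in 1 of 22, Hmgcs1, and in 1.44% of genes, and its 9 bases began 137 bases before the start site. No match overlaps another in the 3 promoters shown. These are matches of letters only, and a window without a match says nothing about binding by the factor.

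25 of the 27 genes had enough counts to be tested among 4729 genes. Scap and Insig2 did not. Scap, the sterol-sensing escort, had 0 to 8 counts per library and 130 in all. Its group means ran from 4.96 CPM (vehicle in DA) to 10.2 CPM (GW in WT). Insig2, a retention protein, had 0 to 13 counts per library and 154 in all. Its group means ran from 5.96 CPM (vehicle in A) to 15.6 CPM (vehicle in DA). In DA it had 11.1 to 24.6 CPM with vehicle (6 to 13 counts) and 2.53 to 8.31 CPM with GW (1 to 4 counts). A count of 0, found in 2 libraries for Scap and 1 for Insig2, allows up to 3 counts, by counting error alone. Of the genes that were tested, Fdps shares its strand with the overlapping gene model Gm43738, which held 18761 counts against 12426 for Fdps. How the authors' counting split reads between them is not given in the sources used here, so the Fdps level is uncertain. Tm7sf2 overlaps Vps51 (93 counts) on the same strand. Fdft1 overlaps Ctsb, Cyp51 overlaps Akap9 and Ggps1 overlaps Arid4b on opposite strands, and the strand handling is also not given.

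The summed level of the cholesterol genes overlapped between all 8 groups. The group means ran from 3146 ± 385 CPM (SD, n = 4, GW in D) to 3474 ± 276 CPM (SD, n = 5, vehicle in A). In WT the sum was 3283 ± 426 CPM (SD, n = 5) with vehicle and 3288 ± 220 CPM (SD, n = 5) with GW.

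GW against vehicle asks whether the agonist moved these genes, in WT and where its receptor or the related one was altered. No member passed in WT, where 0.423% of all tested genes were called by edgeR's quasi-likelihood test at an adjusted p of 0.05. This model held no term for library numbers, and with such terms Hsd17b7 passed in WT (below). No member passed in D (0.00% of all genes), in A (0.296%) or in DA (0.00%). DESeq2 and limma also called 0 members in each of the 4, although DESeq2 gave no adjusted p for Dhcr7 in WT or for Mvk, Dhcr7 and Fads2 in A. At an unadjusted p under 0.05, there was 1 of 25 members for WT, 1 for D, 0 for A and 0 for DA, against 6.39%, 3.11%, 3.62% and 3.19% of all tested genes. The median log2 fold change of the 25 members was 0.04 (WT), 0.0078 (D), -0.07 (A) and 0.04 (DA), beside 0.0081, -0.0015, 0.0018 and 0.00020 over all genes. The 95% interval of the fold change lay within 2-fold in either direction for 21 of 25 members in WT, 21 in D, 25 in A and 22 in DA. The vehicle and GW groups did not overlap in CPM for 1 tested member in WT (1.02% of all tested genes) and 1 in D (1.06%). The same held for 0 tested members in A (0.867%) and 0 in DA (0.825%). Insig2, which was not tested, did not overlap in DA either, at the low counts given above.

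**Figure D1:**
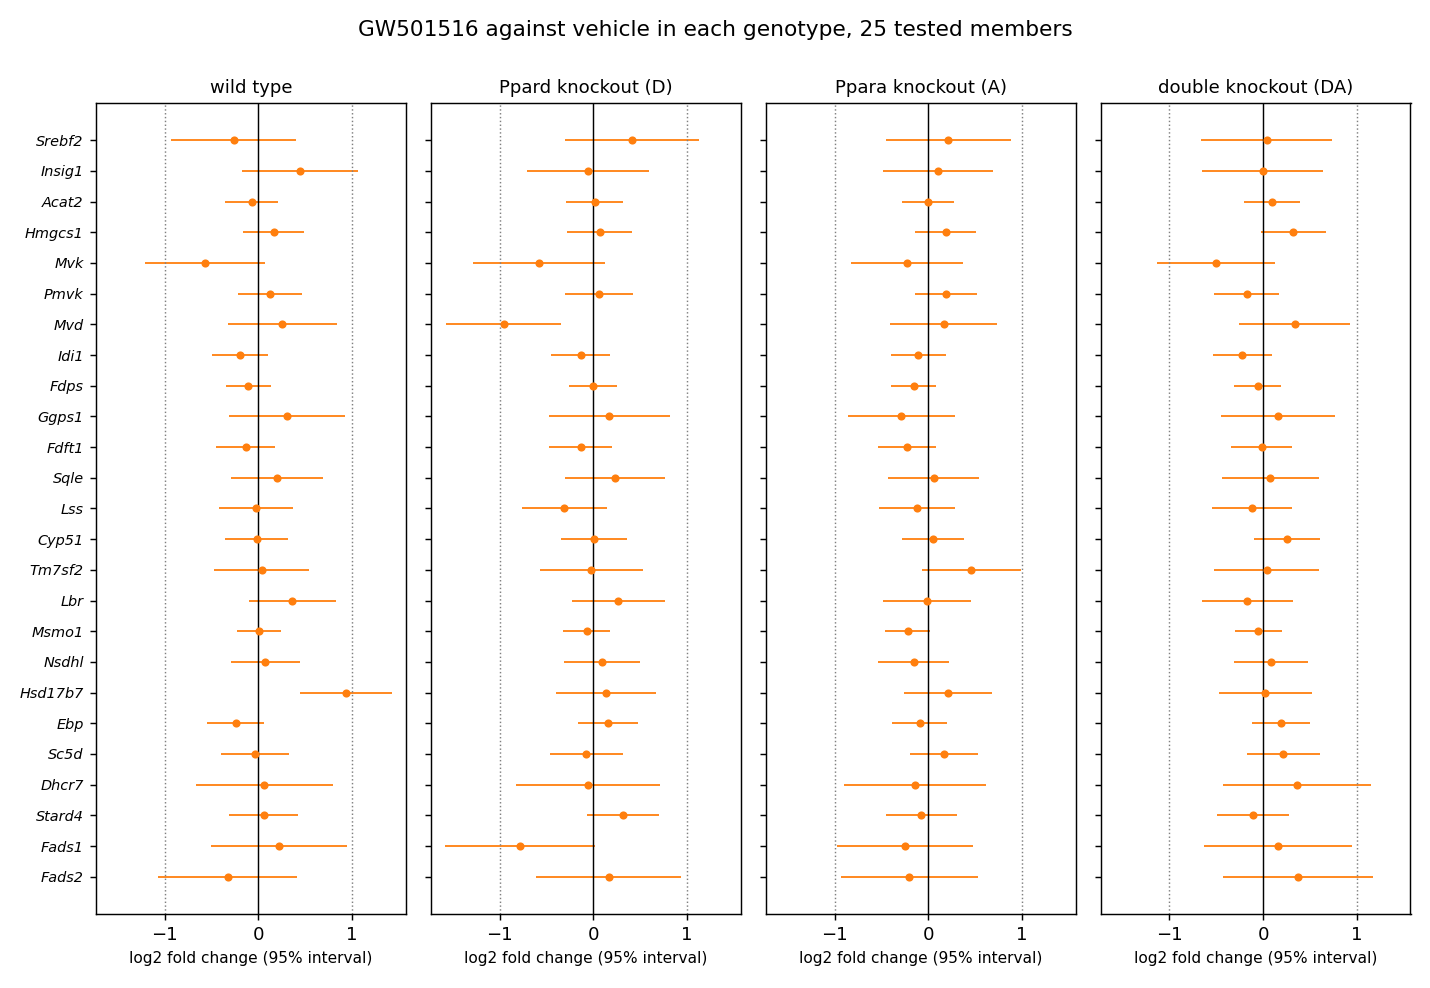
Log2 fold change of GW501516 against vehicle (x axis) for the 25 tested members (rows) in each genotype. Points are edgeR fits, bars are 95% intervals and dotted lines mark 2-fold. Hsd17b7 in WT (0.93) and Mvd in D (-0.95) lie farthest from 0, and no member passed the adjusted threshold.

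The genes described next lie in mm10 as follows, each spanning a protein-coding gene of the GENCODE annotation. Srebf2 is at chr15:82147181-82205379, Insig1 at chr5:28071363-28078662 and Hmgcs1 at chr13:119690379-119708260. Mvk is at chr5:114444269-114460591, Mvd at chr8:122433601-122443422 and Hsd17b7 at chr1:169949535-169969241.

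Among the regulators, Srebf2 had 131, 208, 178, 67.0 and 62.6 CPM with vehicle in WT and 168, 64.9, 160, 98.7 and 71.1 CPM with GW. Both groups spanned low and high libraries and overlapped almost fully. Its log2 fold change was -0.26 ± 0.33 (SE) in WT, 0.41 ± 0.35 in D, 0.22 ± 0.33 in A and 0.04 ± 0.35 in DA (edgeR, adjusted p = 0.936, 1.000, 0.999 and 1.000). Within the libraries numbered 37 to 56 the sign was the opposite in 3 genotypes, at 0.30 in WT, -0.17 in D and -0.053 in DA. The D and DA values there each rest on a group of 1 library. Leaving out vehicle replicate 2 turned the WT value to 0.04. Insig1, a retention protein and itself an SREBP2 target, had 15.8, 35.9, 39.6, 41.1 and 36 CPM with vehicle in WT and 48.5, 76.1, 21.2, 51.8 and 39.5 CPM with GW. The groups overlapped, and the log2 fold change was 0.44 ± 0.31 in WT, -0.06 ± 0.32 in D, 0.10 ± 0.29 in A and -0.0068 ± 0.32 in DA.

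Hmgcs1, which makes HMG-CoA in the mevalonate branch, had 189, 149, 164, 255 and 260 CPM with vehicle in WT and 210, 237, 151, 276 and 290 CPM with GW. The highest libraries of both groups were those numbered 37 and above. Its log2 fold change was 0.17 ± 0.16 in WT, 0.07 ± 0.17 in D, 0.19 ± 0.16 in A and 0.32 ± 0.17 in DA, with a mean of 0.19 ± 0.08 over the 4 genotypes (edgeR, adjusted p = 0.584). The value in D was negative when GW replicate 2 or vehicle replicate 2 or 3 of D was left out (lowest -0.06). Among libraries numbered 37 and above it was -0.30, a value that rests on 1 GW library of D.

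Mvk, mevalonate kinase, had 27.0, 22.7, 15.9, 36.8 and 17.1 CPM with vehicle in WT and 8.08, 15.7, 14.1, 27.1 and 17.8 CPM with GW. Most GW libraries were low, but the groups overlapped. Its fitted value was negative in all 4 genotypes: -0.57 ± 0.32 in WT, -0.58 ± 0.35 in D, -0.23 ± 0.30 in A and -0.50 ± 0.31 in DA. The mean over genotypes was -0.47 ± 0.16, the smallest p of any member in that comparison, and did not pass (edgeR, adjusted p = 0.306). That mean was -0.74 within libraries numbered 1 to 36 and -0.21 within those numbered 37 to 56.

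Mvd, the decarboxylase that makes isopentenyl diphosphate, had 23.5, 31.1, 29.4, 40.9 and 36.7 CPM with vehicle in D and 17.2, 21.8, 10.7 and 16.9 CPM with GW. Every GW library of D lay below every vehicle library. The log2 fold change was -0.95 ± 0.30 and did not pass (edgeR, adjusted p = 1.000), although leaving out each library in turn kept it between -1.13 and -0.82. In the other genotypes it was 0.26 ± 0.29 (WT), 0.16 ± 0.28 (A) and 0.34 ± 0.29 (DA). Its vehicle mean in D was 32.3 CPM, against 19.1 to 20.7 CPM with vehicle in the other genotypes and 16.6 CPM with GW in D.

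Among the other mevalonate and isoprenoid enzymes, Idi1, the isomerase of isopentenyl diphosphate, had negative values in all 4 genotypes, from -0.22 to -0.10, with a mean of -0.16 ± 0.08 (edgeR, adjusted p = 0.620). Fdps, farnesyl diphosphate synthase, had values from -0.16 to -0.00035, but 0.0072 in WT and 0.10 in D within libraries numbered 1 to 36. Summing its counts with those of Gm43738 gave -0.08 ± 0.11 in WT, -0.06 ± 0.11 in D, -0.15 ± 0.11 in A and -0.04 ± 0.11 in DA. The squalene and lanosterol steps showed no call either. Fdft1 (squalene synthase) and Lss (lanosterol synthase) had means over genotypes of -0.13 ± 0.08 and -0.14 ± 0.10, and Sqle (squalene epoxidase) of 0.14 ± 0.13.

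In the steps from lanosterol to cholesterol, Hsd17b7, a sterol 3-keto reductase, came closest to the threshold. It had 22.5, 24.6, 39.6, 49.7 and 32.2 CPM with vehicle in WT and 52.5, 60.4, 54.1, 81.4 and 82.9 CPM with GW. Each GW library lay above each vehicle library. The log2 fold change was 0.93 ± 0.24, or 1.91-fold (95% interval 1.36 to 2.68), and missed the threshold (edgeR, adjusted p = 0.0746). It was 0.92 within libraries numbered 1 to 36 and 0.95 within those numbered 37 to 56. With a term for the number range it passed (edgeR, adjusted p = 0.0474), as it did without vehicle replicate 4 of WT (1.09, adjusted p = 0.0366). It also passed with a term for the 6 sets of consecutive library numbers, an alternative chosen after seeing the data (0.94 ± 0.22, edgeR, adjusted p = 0.0298, with 0.634% of all genes called). DESeq2 gave an adjusted p of 0.0558 and limma 0.112. In the other genotypes its value was 0.14 ± 0.26 (D), 0.21 ± 0.23 (A) and 0.02 ± 0.24 (DA). Of 13 tested enterocyte markers, 7 had a positive and 6 a negative value under GW in WT, with a median of 0.04. These numbers were 9 and 4 in D (median 0.16), 8 and 5 in A (median 0.10) and 3 and 10 in DA (median -0.19). Fabp1, a fatty acid carrier, made up 81.2% of the summed CPM of that list. It was the marker called in WT and in A (1.19 ± 0.29 in WT and 1.28 ± 0.29 in A, edgeR, adjusted p = 0.0463 and 0.0275). All 6 tested goblet cell markers and all 6 tested enteroendocrine markers had positive values in WT, with medians of 0.26 and 0.46 and none called. Positive goblet and enteroendocrine values numbered 5 and 6 in D (medians 0.13 and 0.68), 6 and 3 in A, and 4 and 5 in DA. In WT, 6 of 8 tested markers of cycling cells and 2 of 7 tested Paneth cell markers were positive, with medians of 0.08 and -0.08. Of 5 tested stem cell markers, 2 were positive in WT. Olfm4 of the stem cell list was called lower in the mean over genotypes (-0.77 ± 0.15, edgeR, adjusted p = 0.00152). The part of these cell types in the Hsd17b7 value was not tested.

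Of the other late enzymes, Tm7sf2 (a sterol C14 reductase) and Msmo1 (the C4 methyl oxidase) had the smallest p in A, at 0.46 ± 0.26 and -0.22 ± 0.12, and neither passed (edgeR, adjusted p = 0.999 for both). Cyp51, Lbr, Nsdhl, Ebp, Sc5d and Dhcr7, which complete this stretch, had means over genotypes between 0.0036 and 0.11. Stard4, a cytosolic sterol carrier, had a mean of 0.05 ± 0.09. Fads1, a fatty acid desaturase that is also an SREBP target, had the second smallest p in D, at -0.78 ± 0.39, with overlapping groups of 14.2 to 50.9 CPM and 4.28 to 30.5 CPM. The related Fads2 had a mean of 0.0020 ± 0.18.

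**Figure D2:**
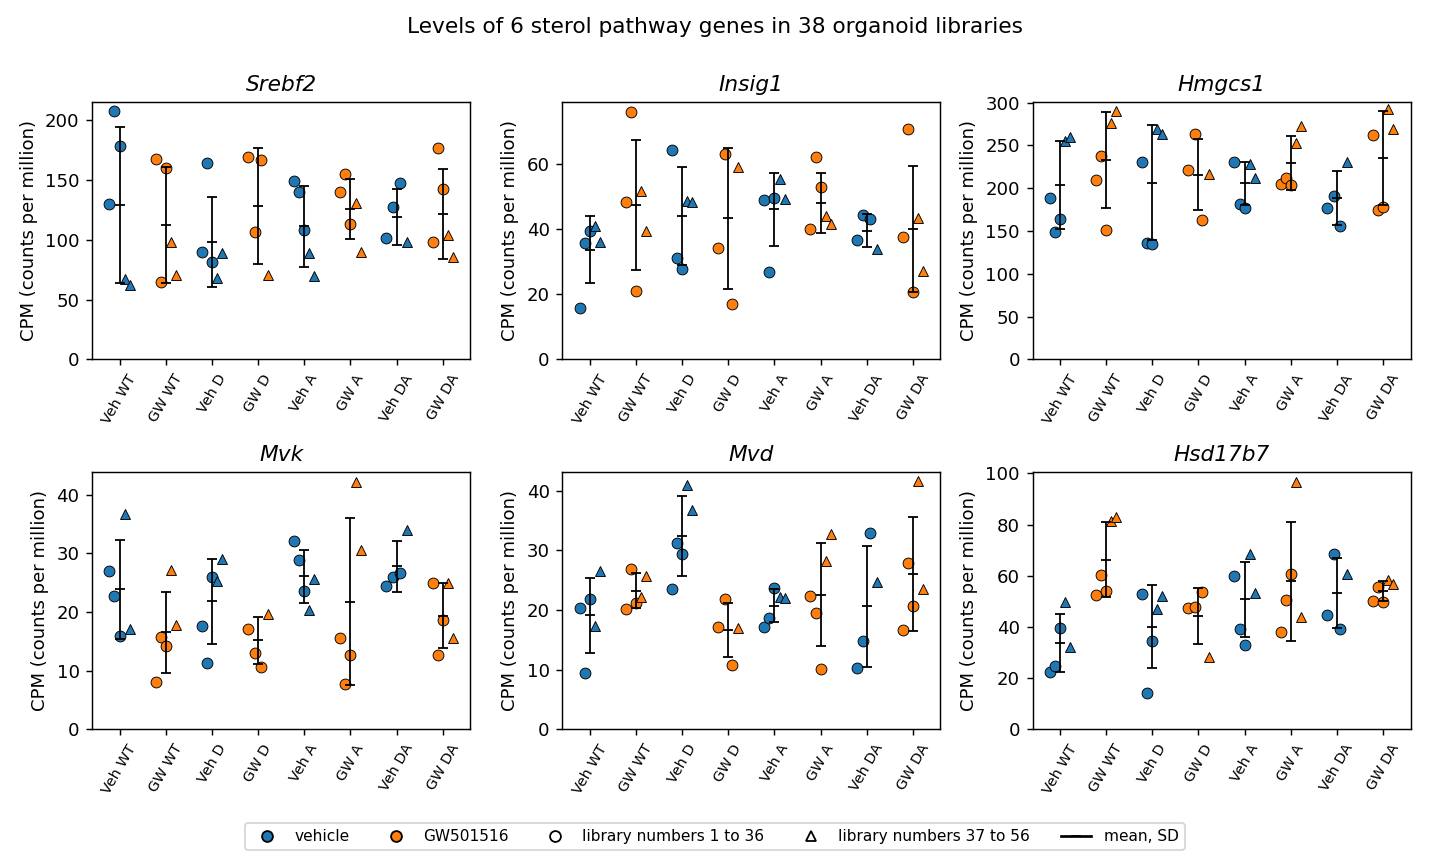
CPM (y axis, from 0) of 6 members in the 38 libraries by group (x axis), with circles for libraries numbered 1 to 36, triangles for 37 to 56, and the group mean and SD. GW libraries lie above vehicle in WT for Hsd17b7 and below vehicle in D for Mvd, while Srebf2 triangles sit low in most groups.

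Averaged over the 4 genotypes, 0 of 25 members were called (edgeR), against 0.634% of all tested genes (30 genes), and DESeq2 and limma also called 0. 4 members had an unadjusted p under 0.05, namely Mvk, Hsd17b7, Hmgcs1 and Idi1, against 7.00% of all genes. All 25 intervals lay within 2-fold and 24 within 1.5-fold. Fitted values had the same sign in all 4 genotypes for 8 of 25 members (32.00%) and for 17.83% of all tested genes. Hmgcs1, Sqle and Hsd17b7 were positive, and Mvk, Idi1, Fdps, Fdft1 and Lss negative, so both signs occurred along the pathway. Several of these values lie close to 0, such as -0.02 for Fdft1 in DA and for Lss in WT, and Fdps in D was 0.0087 with a term for the number range.

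Knockout against WT asks whether the genotype alone set these levels. The 3 comparisons within a treatment share their WT libraries, so their values stand side by side and are not compared. With vehicle, edgeR called 0 members in D (0.0423% of all genes called), in A (0.148%) and in DA (0.296%). With GW it also called 0 in D (0.0634%), in A (0.233%) and in DA (0.846%). DESeq2 and limma called 0 members in all 6. At an unadjusted p under 0.05 there were 1, 2 and 2 members with vehicle and 2, 0 and 1 with GW, against 3.43%, 4.42%, 6.26%, 3.68%, 4.97% and 9.05% of all genes. The groups overlapped for every tested member in all 6 comparisons, while 0.804%, 0.782% and 2.58% of all genes did not overlap with vehicle in D, A and DA, and 0.888%, 0.465% and 1.42% with GW. The members' median log2 fold change lay between -0.07 and 0.04 in the 6 comparisons.

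With vehicle, the log2 fold change of Mvd in D against WT was 0.77 ± 0.27, with overlapping groups of 23.5 to 40.9 and 9.46 to 26.6 CPM (edgeR, adjusted p = 1.000). Srebf2 was -0.42 ± 0.33 in the same comparison and 0.23 within libraries numbered 37 to 56. Hsd17b7 had values of 0.53 ± 0.25 in A and 0.60 ± 0.26 in DA (edgeR, adjusted p = 1.000 and 0.688). Its vehicle means were 33.7 CPM in WT, 40.1 in D, 50.8 in A and 53.2 in DA, so WT with vehicle was the lowest of the 8 groups for this gene. Ggps1, which makes the geranylgeranyl donor for protein prenylation, was 0.68 ± 0.29 in A, at 28.3 to 44.5 CPM against 9 to 36.8 CPM. Sc5d, a late desaturase, was -0.44 ± 0.19 in DA, at 96.6 to 159 CPM against 127 to 212 CPM.

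With GW, Lss and Hsd17b7 were -0.52 ± 0.22 and -0.51 ± 0.25 in D (edgeR, adjusted p = 1.000 for both). Nsdhl, a C4 decarboxylase, and Stard4 were -0.31 ± 0.19 and -0.29 ± 0.18 in A. Nsdhl was 0.02 in that comparison within libraries numbered 37 to 56. Ebp, the sterol isomerase, was 0.37 ± 0.15 in DA, at 112 to 170 CPM against 101 to 113 CPM in WT (edgeR, adjusted p = 0.383), and Hsd17b7 was -0.31 ± 0.23.

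**Figure D3:**
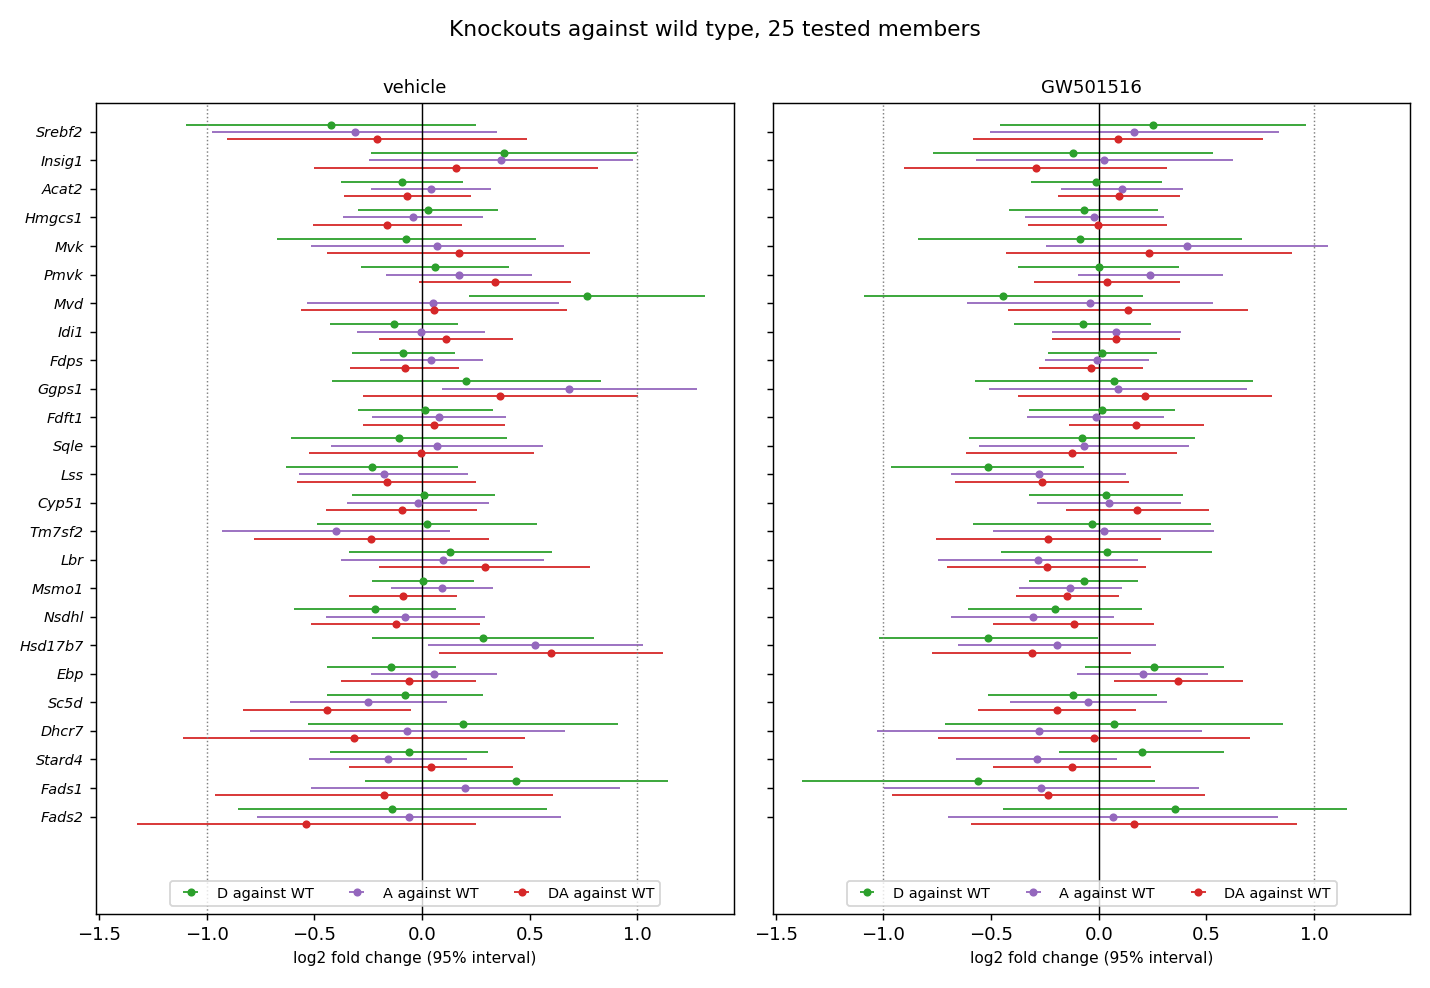
Log2 fold change of each knockout against WT (x axis) for the 25 tested members (rows), with vehicle (left) and with GW501516 (right). Points are edgeR fits, bars are 95% intervals and dotted lines mark 2-fold. Most intervals cross 0, and no member passed the adjusted threshold.

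The difference of the GW response between a knockout and WT was tested directly. edgeR called 0 members in each, against 0.00% of all genes for D, 0.00% for A and 0.0846% for DA, and so did DESeq2 and limma, with 2, 1 and 1 members at an unadjusted p under 0.05 (3.47%, 3.45% and 4.25% of all genes). The Hsd17b7 response differed from that in WT by -0.80 ± 0.36 in D, -0.72 ± 0.34 in A and -0.91 ± 0.34 in DA, and the 3 values share the WT libraries (edgeR, adjusted p = 1.000 for each). The Mvd response in D differed by -1.21 ± 0.42 (edgeR, adjusted p = 1.000).

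The other genes of sterol and lipid handling gave few calls. In fatty acid synthesis, 13 of 17 genes were tested, and Me1, the malic enzyme that supplies NADPH, rose with GW in WT by 2.15 ± 0.39 (edgeR, adjusted p = 0.00137), from 11.2 ± 7.57 to 51.9 ± 27.4 CPM (SD, n = 5 each). Me1 and Scd1, the stearoyl-CoA desaturase, rose in the mean over genotypes by 1.04 ± 0.21 and 0.54 ± 0.14 (edgeR, adjusted p = 0.00256 and 0.0456). Me1 was 1.13 in D, 1.05 in A and -0.15 in DA, and Scd1 was 0.85 in WT, 0.24 in D, 0.47 in A and 0.62 in DA, none of them called. edgeR called nothing in any of the 14 comparisons among sterol efflux genes (3 of 9 tested), cholesterol ester and trafficking genes (8 of 18), SREBP processing genes (5 of 12) or side branches of the pathway (7 of 23). Of the 322 values of these 23 tested genes, 27 (8.39%) had an unadjusted p under 0.05, against 4.73% of the values of all tested genes. The 14 comparisons reuse the same 8 groups, so these values are not independent and 1 gene, such as Nus1, enters several times. DESeq2 and limma called 0 of the 322, and DESeq2 gave no adjusted p for 13.
Lipa, which frees cholesterol from esters in lysosomes, had values of 0.81 ± 0.25 in WT, 0.61 ± 0.27 in D, 0.61 ± 0.25 in A and -0.40 ± 0.27 in DA (edgeR, adjusted p = 0.299 in WT). Nus1, of the dolichol branch, was 0.95 ± 0.28 in WT (edgeR, adjusted p = 0.229) and -0.15, -0.31 and -0.49 in D, A and DA. Abcg5, a sterol exporter, averaged 0.46 ± 0.15 over genotypes (edgeR, adjusted p = 0.267). Nceh1, a cholesterol ester hydrolase, was 0.46 ± 0.31 in WT, -0.10 ± 0.32 in D, 0.73 ± 0.31 in A and 0.49 ± 0.31 in DA. Vcp, which extracts proteins for degradation, was 0.40 ± 0.20, -0.24 ± 0.21, 0.08 ± 0.19 and -0.33 ± 0.21 in the same order.

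The members also differed between the number ranges of the libraries. These ranges are a property of the libraries and not of the design, so the values are a description with no test. Srebf2 had 64.9 to 208 CPM, median 142, in libraries numbered 1 to 36 and 62.6 to 131 CPM, median 87.4, in those numbered 37 to 56. It was lower in the latter in 8 of 8 groups, by a mean log2 difference of -0.77, at the 1.37 percentile of all tested genes. Fdft1 (0.30), Sc5d (0.37) and Lbr (0.48), a sterol reductase of the nuclear envelope, were higher in 8 of 8 groups. In all, 21 of 25 members (84.00%) were higher in libraries numbered 37 to 56, against 56.76% of all tested genes, with medians of 0.15 and 0.04. These log2 differences are on the TMM scale, whose scaling factors ran from 0.856 to 1.08 in libraries numbered 1 to 36 and from 1.02 to 1.13 in those numbered 37 to 56. On that scale the 25 tested members summed to 3282 ± 246 CPM (SD, n = 24) and 3514 ± 183 CPM (SD, n = 14). Scaled to the library total alone, the same sums lay farther apart, at 3077 ± 357 and 3600 ± 188 CPM. The cause was not tested.

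Whether the members vary together between libraries of one group was asked by relating each to Hmgcs1 after removing group means, in 24 relations. Within libraries numbered 1 to 36 (n = 24), the median r was 0.29, against 0.04 for all tested genes, and 19 of 24 were above 0, against 54.6% of all genes. None of the 24 passed after adjustment (permutation test within groups, 100000 resamples, two-sided, lowest adjusted p = 0.230 for r and 0.240 for rho), and the shuffling did not keep the sets of consecutive library numbers. Srebf2 had r = -0.64 and rho = -0.61 (permutation p = 0.0294 and 0.0222, unadjusted), and -0.59 without the 2 libraries farthest from the Hmgcs1 median. Fdft1 had r = 0.50 and rho = 0.51 (permutation p = 0.0246 and 0.0300, unadjusted), and 0.38 without those 2. Within libraries numbered 37 to 56, where only 12 libraries in pairs could be centred, the median r was -0.21, and the values were -0.40 for Srebf2 and -0.41 for Fdft1.
Over all 38 libraries pooled, the median r was 0.31, against 0.07 for all tested genes, and 22 of 24 were above 0, against 58.4%. Srebf2 had r = -0.71 and rho = -0.72, and Fdft1 had r = 0.69 and rho = 0.73, each with an adjusted permutation p of 0.00012 (two-sided), from the smallest p that 100000 resamples give (1e-05). Without the 2 libraries farthest from the Hmgcs1 median these r were -0.73 and 0.71. For these pooled p-values all 38 libraries were shuffled freely, across groups and number ranges, so they do not measure variation within a range. The pooled values include the difference between the number ranges described above, and no relation passed within the larger range alone.

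**Figure D4:**
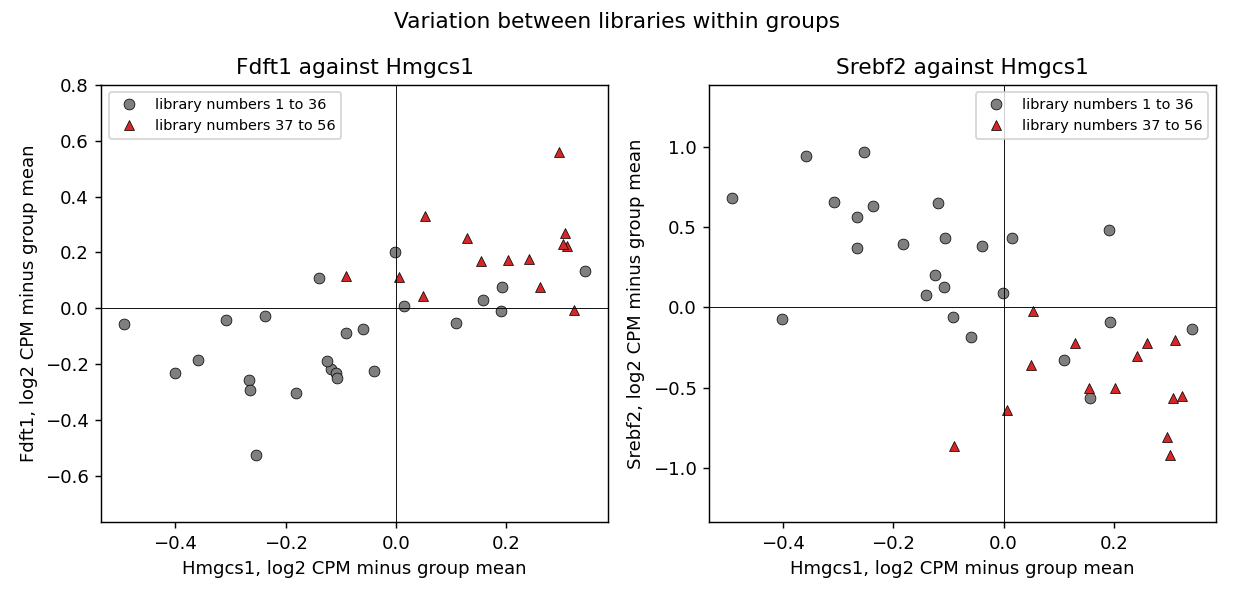
Log2 CPM minus the group mean of Fdft1 (left, y axis) and Srebf2 (right, y axis) against Hmgcs1 (x axis), 1 point per library, with circles for libraries numbered 1 to 36 and triangles for 37 to 56. Triangles lie mostly at high Hmgcs1 with high Fdft1 and low Srebf2.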

How the data were processed

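Polyadenylated RNA of 38 organoid libraries was profiled by 3′ digital gene expression. The table deposited by the authors holds unnormalized whole-number counts for Ensembl identifiers, made with Salmon 1.1.0, R 3.6.2 and edgeR 3.26.8 on mm10, per the submitters' processing notes. Of 57 columns, 38 were given a group from the names of treatment and genotype they carry, and 19 were not used. GENCODE symbols matched 54179 of 54352 identifiers. Genes were filtered with filterByExpr by group, scaled by TMM and fitted over 8 groups in 1 model (edgeR 4.0.16, glmQLFTest, R 4.3.3), with Benjamini-Hochberg adjustment over 4729 genes per comparison in 14 comparisons and a threshold of 0.05. Scripts were tested on simulated data. DESeq2 1.42.0, limma 3.58.1, RLE scaling, no filter, a term for the library-number ranges, each range alone, the 5 suffixed columns left out and each replicate left out were alternatives. A term for sets of consecutive library numbers was added after seeing the data. Replicates are numbered in column order and pair nothing. No within-group pair of libraries was a copy (72 pairs, chi-square per degree of freedom 1.51 to 7.10 over genes with at least 10 counts). Log2 CPM for correlations used a prior count of 2.

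The members and lists were chosen with earlier results of these data known. Values are given for members that passed, for the 2 members with the smallest p in each GW or knockout comparison, and for Srebf2, Scap, Insig1, Insig2 and Hmgcs1. Pathway genes were named where called, otherwise by the smallest p under GW. Other members are named to complete a step of the pathway or for a sign, an overlap or a number range, after their values were seen.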

Additional observations from a re-analysis of the deposited data

Results flagged for a closer look

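In 7 of 160 sets of a named member (or the members' sum) in a group, 1 library stood farther from its nearest neighbour than the spread of the others allows. Chance alone marks about 1 set in 20. Ggps1 reached 35.1 CPM in replicate 4 of vehicle in D (next 23.5), Srebf2 164 CPM in replicate 2 (next 90.0) and Tm7sf2 32.9 CPM in replicate 5 (next 25.5) of the same group. Insig1 was low at 15.8 CPM in replicate 1 of vehicle in WT (next 35.9) and at 26.9 CPM in replicate 2 of vehicle in A (next 49.1). Scap reached 13.5 CPM in replicate 1 of vehicle in WT (next 5.69), at only a few counts. The summed members were low at 2574 CPM in replicate 3 of GW in D (next 3286).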

How the results depend on the processing

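No paired analysis was possible because the table's columns carry no replicate numbers. The libraries do fall into 6 sets of consecutive library numbers (4 to 8 libraries each, a gap of more than 2 starting a new set). Each set holds at most 1 library of any group, and 1 set holds all 8 groups. The main model holds no term for these sets, and such a term was added after seeing the data. Whether a set is a culture or a preparation is not given in the sources used here. With the term for the sets, calls among all genes rose from 40 to 91 in DA against WT under GW. They rose from 30 to 62 in the mean over genotypes and fell in no comparison. The count of members called stayed at 0 in all 14 comparisons under every alternative run, except for GW against vehicle in WT, where it was 1 (Hsd17b7) with the term for the number ranges, 1 with that for the sets, and 0 to 1 over the replicates left out. Hsd17b7 had 0.93 and 0.94 with these terms. Within libraries numbered 37 to 56, values turned sign for Srebf2 under GW in WT (0.30), D (-0.17) and DA (-0.053) and in D against WT with vehicle (0.23), for Hmgcs1 under GW in D (-0.30), for Nsdhl in A against WT under GW (0.021), and for the median relation to Hmgcs1 (-0.21). The values under GW in D and DA in that range rest on 1 GW library of D and 1 vehicle library of DA. Fdps under GW turned to 0.0072 in WT and 0.10 in D within libraries numbered 1 to 36, and to 0.0087 and 0.021 in D with the terms for ranges and sets. Leaving out replicates gave ranges that cross 0 for Srebf2 under GW in WT (-0.46 to 0.036) and DA (-0.15 to 0.18), for Hmgcs1 in D (-0.059 to 0.15), and for Fdps in D (-0.11 to 0.053) and DA (-0.17 to 0.051). The causes were not tested. Summing Fdps with Gm43738 was added after seeing the data and changed no sign. Counts of all genes called under GW ran from 12 to 45 in WT, 0 to 12 in D, 3 to 28 in A, 0 to 9 in DA and 14 to 62 in the mean. Against WT they ran with vehicle from 0 to 18 (D), 0 to 54 (A) and 0 to 80 (DA), and with GW from 1 to 19, 0 to 58 and 19 to 109. At this depth Scap and Insig2 could not be tested, and under GW the 95% intervals of up to 4 of 25 members reached beyond 2-fold.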
